A study of Mus musculus with 15 samples.

Results

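Toll-like receptors are membrane proteins that recognise microbial and damage-associated molecules. Tlr1, Tlr2, Tlr4 and Tlr6 act at the cell surface, where Tlr2 pairs with Tlr1 or with Tlr6 to bind lipopeptides and Tlr4 binds bacterial lipopolysaccharide together with MD-2, the small secreted protein encoded by Ly96. Tlr3, Tlr7, Tlr8, Tlr9 and Tlr13 sense nucleic acids in endosomes, and Tlr13 is present in mice and absent in humans. All but Tlr3 signal through the adaptor Myd88, Tlr3 and Tlr4 also signal through the adaptor Ticam1, and macrophages of the atherosclerotic artery wall are among the cells in which this family has been studied most. The 10 genes described here are these 9 receptors and Ly96, chosen by symbol from the 47729 features of the count table.

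RNA came from aortic macrophages sorted as F4/80+ CD64+ from female Apoe-/- mice, whose deficiency of apolipoprotein E makes them prone to atherosclerosis, after 4 weeks on a high fat diet. The cells were sorted as Olfr2+ or Olfr2-, according to the olfactory receptor Olfr2. Both groups therefore share the genotype (given as Apoe dko in one label), diet, sex and tissue, and by their labels differ in the sort. Their columns also differed in depth and in marker levels, as given below. Per the labels' protocols the aortas of 4 mice were pooled and the sorts were technical replicates. There were 10 columns of counts labelled Olfr2+ and 5 labelled Olfr2-, which were read as 3 numbered samples per label with letters for repeats. No label ties a numbered sample to its own animals. The p-values therefore rest on a spread that may be purely technical.

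Several properties of the libraries bear on every value that follows. Column totals were 76.0 to 95.6 M counts (M, 1000000) in 7 Olfr2+ columns (2A to 2D and 3A to 3C), 29.9 to 37.6 M in the other 3 Olfr2+ columns (3D, 4A and 4B) and 30.5 to 53.2 M in the Olfr2- columns. Counts of Olfr2 itself were few and ran opposite to the sort, with 18 over the columns labelled Olfr2+ and 145 over those labelled Olfr2-. Of the 145, 76 were in column 1A and 0 in column 3A. No Olfr2+ column was above 0.234 CPM and no Olfr2- column above 2.49 CPM. Olfr2+ and Olfr2- therefore stand below for the libraries that carry these labels. The F4/80 gene Adgre1 was at 123 to 312 CPM (counts per 1000000 of the column total) in the deeper Olfr2+ columns, 46.0 to 84.3 CPM in the other Olfr2+ columns and 9.48 to 235 CPM in the Olfr2- columns, and the CD64 gene Fcgr1 was at 0.544 to 103, 0.772 to 3.43 and 4.18 to 19.95 CPM in the same order. The summed level of 8 fibroblast markers was 28711 to 35026 CPM in the deeper Olfr2+ columns, 2459 to 4779 CPM in the other Olfr2+ columns and 2118 to 3880 CPM in the Olfr2- columns, with 8, 7 and 8 of the 8 at a median of 10 CPM or more. The summed level of 10 macrophage markers was 7467 to 14692, 2432 to 3339 and 1568 to 8649 CPM in the same order. Of the 10, 9, 8 and 8 were at a median of 10 CPM or more. Lyz2, one of them, was at 4740 to 10335, 1320 to 2135 and 716 to 7847 CPM. Itgam ran the other way, at 24.7 to 132, 298 to 367 and 151 to 518 CPM, and Csf1r overlapped, at 221 to 987, 284 to 1220 and 49.7 to 1297 CPM. The 6 monocyte markers summed to 438 to 707, 2010 to 3035 and 1074 to 2954 CPM. In bulk samples, fewer cells of a type and less RNA per cell cannot be told apart.

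Tlr1 and Tlr6 lie close together on chromosome 5 and are close paralogs, so how reads from their shared sequence were assigned bears on their counts. In the GENCODE M21 transcripts (build GRCm38), 19.41% of the 50-base windows of the Tlr1 coding sequence, 454 of 2339, also occurred in that of Tlr6, and no other pair among the 10 genes shared a 50-base window. The longest identical run was 229 bases. It is shown with 30 bases on each side, from chr5:64925507-64925795 for Tlr1 and chr5:64953798-64954086 for Tlr6 (GRCm38, minus strand, within coding exons), 5′ to 3′ along the transcript, because a read that falls inside it could come from either gene. Capitals mark the bases at which the genes differ.
Tlr1: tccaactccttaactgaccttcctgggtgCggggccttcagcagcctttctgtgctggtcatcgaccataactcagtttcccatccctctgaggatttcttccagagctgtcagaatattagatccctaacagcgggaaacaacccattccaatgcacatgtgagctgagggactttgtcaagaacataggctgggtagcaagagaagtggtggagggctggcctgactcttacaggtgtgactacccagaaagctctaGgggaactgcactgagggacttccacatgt
Tlr6: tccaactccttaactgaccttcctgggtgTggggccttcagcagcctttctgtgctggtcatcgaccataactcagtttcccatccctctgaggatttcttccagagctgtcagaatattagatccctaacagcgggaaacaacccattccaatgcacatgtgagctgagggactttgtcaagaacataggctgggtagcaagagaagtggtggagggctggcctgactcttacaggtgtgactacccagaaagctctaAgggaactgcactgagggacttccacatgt
Only 2 of these 289 bases differed. A read that lies wholly within the identical run matches both genes. Further shared windows lay outside this stretch, so the levels of this pair are uncertain beyond it too. Olfr2+ column 2B had 2977 counts of Tlr1 and 2 of Tlr6, Olfr2+ column 3D had 4311 and 13, Olfr2+ column 3C had 14 and 1197, and Olfr2+ column 4A had 106 and 683. Olfr2- column 4B had 490 and 11. These are the 5 columns in which either gene reached 10 CPM.

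**Figure D1:**
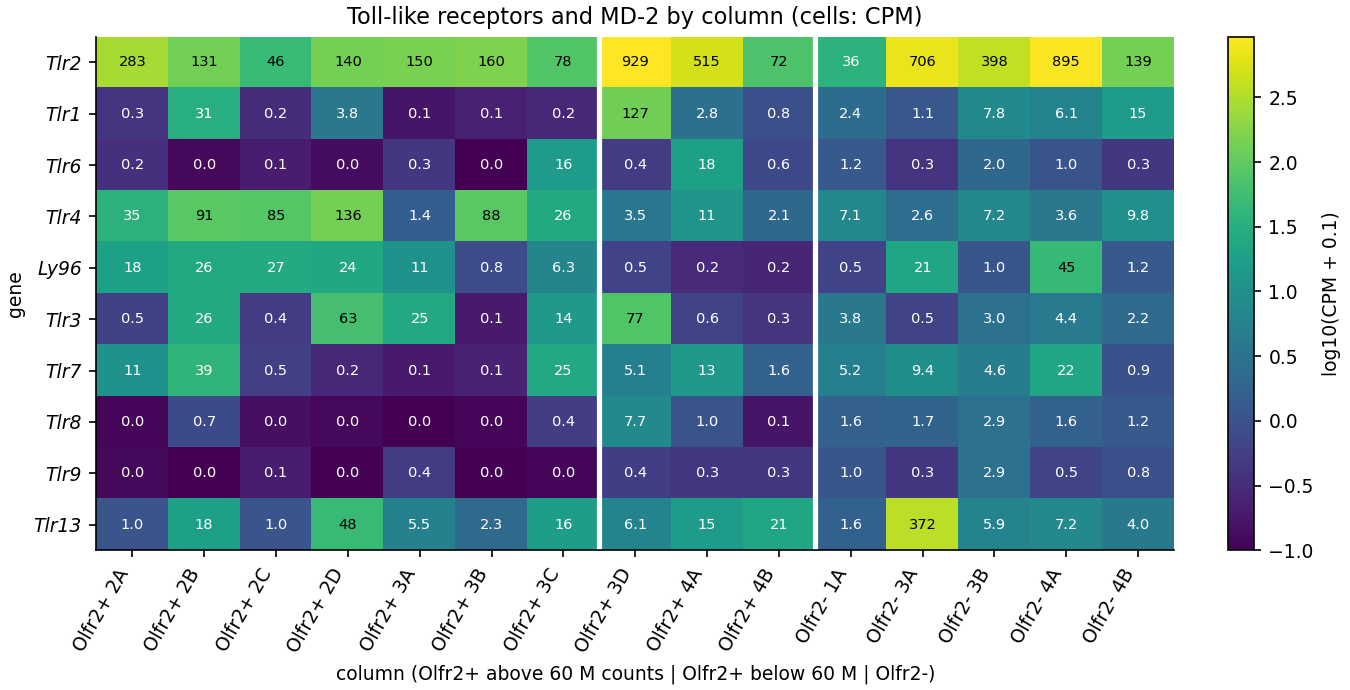
Level of each gene (rows) in each of the 15 columns, as CPM of the column total printed in the cells and log10(CPM + 0.1) in the colour, with white lines between the deeper Olfr2+ columns, the other Olfr2+ columns and the Olfr2- columns. Tlr2 was at 36.5 CPM or more in every column, Tlr4 was at 26.1 to 136 CPM in 6 of the 7 deeper Olfr2+ columns, and most other cells were below 10 CPM with isolated high ones.

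Tlr2 was the most abundant receptor under both labels and the only one of the 10 genes present at 10 CPM or more in all 15 columns. Its level in the Olfr2+ columns was 283, 131, 46.4 and 140 CPM (2A to 2D), 150, 160, 77.6 and 929 CPM (3A to 3D) and 515 and 72.1 CPM (4A and 4B). In the Olfr2- columns it was 36.5 CPM (1A), 706 and 398 CPM (3A and 3B) and 895 and 139 CPM (4A and 4B). The labels overlapped fully. Summed per numbered sample and scaled by TMM (edgeR's correction for library composition), Tlr2 averaged 332 ± 32.0 CPM in Olfr2+ samples and 280 ± 226 CPM in Olfr2- samples (SD, n = 3 each). The log2 fold change, Olfr2+ over Olfr2-, was 0.25 (SE 0.94), and edgeR's quasi-likelihood test gave an adjusted p of 0.856. The wide Olfr2- spread came from sample 1, at 22.1 CPM beside 443 and 375 CPM in samples 3 and 4. Without Olfr2- sample 1 the log2 fold change was -0.41.

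The partners of Tlr2 were each high in a few columns. Tlr1 was at 127 CPM in Olfr2+ column 3D and 31.1 CPM in Olfr2+ column 2B, and at 0.0701 to 3.80 CPM in the other 8 Olfr2+ columns. In the Olfr2- columns it was at 2.39, 1.09, 7.79, 6.14 and 15.3 CPM (1A, 3A, 3B, 4A and 4B). The Olfr2- columns thus lay in a narrow band inside a much wider Olfr2+ range. Tlr6 was at 15.8 CPM in Olfr2+ column 3C and 18.2 CPM in Olfr2+ column 4A, against 0.636 CPM or less in the other 8 Olfr2+ columns and 0.301 to 2.04 CPM in the Olfr2- columns. Tlr1 reached 10 CPM in 3 columns and Tlr6 in 2, and no column held both at that level. Per sample, Tlr1 averaged 14.6 ± 10.9 CPM in Olfr2+ and 3.61 ± 2.73 CPM in Olfr2- samples, with a log2 fold change of 2.02 (SE 1.496, adjusted p in edgeR = 0.316). Tlr6 averaged 6.21 ± 5.90 CPM in Olfr2+ and 0.628 ± 0.149 CPM in Olfr2- samples, with a log2 fold change of 3.30 (SE 1.67, adjusted p in edgeR = 0.165). The samples of both labels overlapped for both genes.

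**Figure D2:**
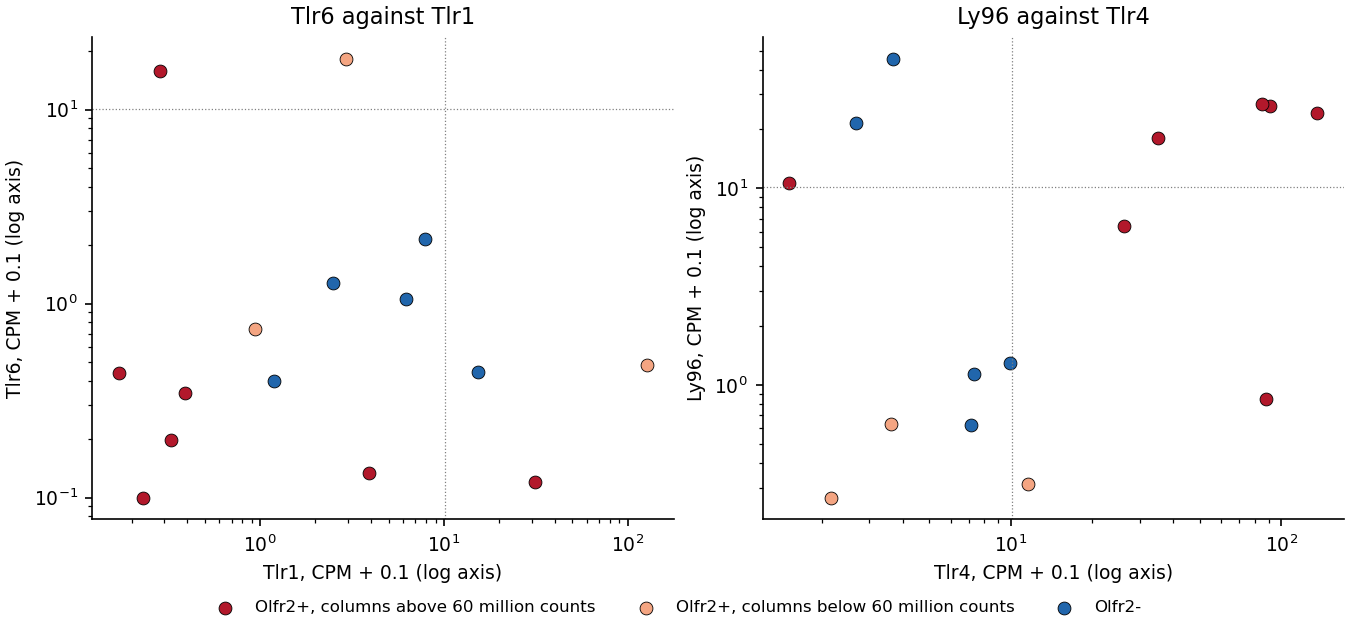
Levels of partner genes in the same column, Tlr6 against Tlr1 (left) and Ly96 against Tlr4 (right), in CPM + 0.1 on log axes, 1 point per column, with dotted lines at 10 CPM. Tlr1 reached 10 CPM in 3 of the 15 columns and Tlr6 in 2, and no column lies past both lines. Tlr4 and Ly96 each reached it in 7 columns, and 4, all deeper Olfr2+ columns, lie past both lines.

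Tlr4, the lipopolysaccharide receptor, had the largest log2 fold change of the 10 genes. It was at 35.01, 90.5, 84.9 and 136 CPM in Olfr2+ columns 2A to 2D, at 1.41, 88.2, 26.1 and 3.52 CPM in 3A to 3D, and at 11.4 and 2.07 CPM in 4A and 4B. The Olfr2- columns held 7.05 CPM (1A), 2.57 and 7.19 CPM (3A and 3B) and 3.58 and 9.82 CPM (4A and 4B). The high values belonged to 6 of the 7 deeper Olfr2+ columns, while the other 3 Olfr2+ columns ran from 2.07 to 11.4 CPM and overlapped the Olfr2- columns. Per sample, TMM-scaled Tlr4 was at 180, 47.0 and 8.41 CPM in Olfr2+ samples 2, 3 and 4, and at 4.27, 3.22 and 4.16 CPM in Olfr2- samples 1, 3 and 4. Each Olfr2+ sample thus lay above each Olfr2- sample, with means of 78.5 ± 90.1 CPM in Olfr2+ and 3.88 ± 0.573 CPM in Olfr2- samples. The same non-overlap with Olfr2+ above held for 13.5% of the 24362 genes tested (35.5% in either direction), and on library totals, where Tlr4 also did not overlap, for 6.21% (36.1% in either direction). The log2 fold change was 4.34 (SE 1.41) and did not pass, with an edgeR adjusted p of 0.077, but passed in DESeq2 (adjusted p = 0.0022), with library names as the unit (adjusted p in edgeR = 0.047) and without Olfr2+ sample 4 (adjusted p in edgeR = 0.048). Without Olfr2+ sample 2 it was 2.87 (adjusted p in edgeR = 0.274). In the 8 columns below 60 M counts, which leave 2 Olfr2+ and 3 Olfr2- samples, it was 0.75 (SE 1.32, adjusted p in edgeR = 0.858). The fibroblast marker sum was higher in the same 7 deeper columns, and its part in the Tlr4 difference was not tested.

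Ly96, whose product MD-2 holds the lipid part of lipopolysaccharide, did not follow Tlr4 through the Olfr2- libraries. It was at 17.9, 26.05, 26.6 and 24.1 CPM in Olfr2+ columns 2A to 2D, at 10.6, 0.751, 6.34 and 0.532 CPM in 3A to 3D, and at 0.213 and 0.167 CPM in 4A and 4B. In the Olfr2- columns it was at 0.525 CPM (1A), 21.2 and 1.04 CPM (3A and 3B) and 45.4 and 1.19 CPM (4A and 4B). Olfr2- columns 3A and 4A were high while columns 3B and 4B, which share their library names, were not. Ly96 reached 10 CPM in 7 columns and so did Tlr4, and both did so in 4 columns. Per sample, Ly96 averaged 19.0 ± 26.3 CPM in Olfr2+ and 9.29 ± 8.54 CPM in Olfr2- samples, with a log2 fold change of 1.03 (SE 1.58, adjusted p in edgeR = 0.634). In the columns below 60 M counts the sign turned, with a log2 fold change of -4.54 (SE 1.94, adjusted p in edgeR = 0.462).

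The proportion of MD-2 to Tlr4 transcript was compared within samples, where scaling between libraries has no effect. Per kb of exon, the ratio of Ly96 to Tlr4 was 1.48, 0.881 and 0.144 in Olfr2+ samples 2, 3 and 4, against 0.405, 17.3 and 22.7 in Olfr2- samples 1, 3 and 4. The mean log2 difference, Olfr2+ minus Olfr2-, was -3.24, and the exact two-sided permutation test gave p = 0.3, where 3 samples against 3 cannot go below 0.1. When each sample was left out it ran from -5.11 without Olfr2- sample 1 (exact p = 0.1, the smallest that 3 against 2 allow) to -2.21 without Olfr2- sample 4. The ratio of Tlr1 and Tlr6 together to Tlr2 was 0.0570, 0.0786 and 0.0319 in the Olfr2+ samples and 0.0853, 0.00679 and 0.0170 in the Olfr2- samples, a log2 difference of 1.29 (exact p = 0.4), which ran from 0.46 without Olfr2- sample 3 to 2.28 without Olfr2- sample 1. The endosomal receptors made up a fraction of 0.147, 0.0838 and 0.0557 of the 9 receptors in the Olfr2+ samples and of 0.177, 0.225 and 0.0289 in the Olfr2- samples, a log2 difference of -0.25 (exact p = 0.8). With Benjamini-Hochberg adjustment over these 3 ratios the p-values were 0.6, 0.6 and 0.8. The ranges of the labels overlapped for all 3 ratios, and Olfr2- sample 1 stood apart from Olfr2- samples 3 and 4 in the first.

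Among the endosomal receptors, Tlr3, the sensor of double-stranded RNA, was the one with the largest fold change. It was at 76.7 CPM in Olfr2+ column 3D, 63.2 CPM in 2D, 26.2 CPM in 2B, 24.8 CPM in 3A and 13.7 CPM in 3C, and at 0.0906 to 0.559 CPM in the other 5 Olfr2+ columns. The Olfr2- columns held 0.545 to 4.42 CPM, a band that no Olfr2+ column fell into other than 4A, at 0.559 CPM. Per sample, Tlr3 was at 47.0, 29.99 and 0.513 CPM in Olfr2+ samples 2, 3 and 4, and at 2.30, 1.09 and 2.29 CPM in Olfr2- samples 1, 3 and 4. Olfr2+ sample 4 was thus the lowest of all 6. The log2 fold change was 3.77 (SE 1.61, adjusted p in edgeR = 0.122), and 4.54 (SE 1.77, adjusted p in edgeR = 0.442) in the columns below 60 M counts, where 3D was the only column of Olfr2+ sample 3.

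Tlr7, a receptor for single-stranded RNA, and Tlr8, its relative with the same ligand in humans, were low to moderate. Tlr7 was highest in Olfr2+ columns 2B (39.2 CPM), 3C (25.01 CPM), 4A (13.5 CPM) and 2A (10.5 CPM) and in Olfr2- column 4A (21.7 CPM), and was at 0.0935 to 9.43 CPM in the other columns. On the TMM scale the samples did not overlap, with 26.7, 10.9 and 9.48 CPM in Olfr2+ and 3.12, 5.72 and 8.38 CPM in Olfr2-, as for 13.5% of all genes tested with Olfr2+ above, but on library totals they did. Its log2 fold change was 1.45 (SE 1.41, adjusted p in edgeR = 0.444). Tlr8 exceeded 3 CPM only in Olfr2+ column 3D, at 7.65 CPM, and was at 0 to 0.958 CPM in the other Olfr2+ columns and 1.19 to 2.89 CPM in the Olfr2- columns. On library totals each Olfr2+ sample lay below each Olfr2- sample, as for 29.8% of all genes tested, and on the TMM scale they overlapped. The log2 fold change of Tlr8 was -0.44 (SE 1.29, adjusted p in edgeR = 0.813).

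Tlr9, the receptor for unmethylated CpG DNA, was the least abundant of the 10 genes. It had 0 counts in Olfr2+ columns 2B, 2D and 3B, where 3 counts would have been 0.0314 to 0.0388 CPM, and at most 0.443 CPM in the other Olfr2+ columns. In the Olfr2- columns it was at 1.05, 0.319, 2.89, 0.550 and 0.842 CPM (1A, 3A, 3B, 4A and 4B). Per sample, Tlr9 was at 0.0624, 0.265 and 0.376 CPM in Olfr2+ and at 0.635, 0.960 and 0.447 CPM in Olfr2-, so that each Olfr2+ sample lay below each Olfr2- sample, as did 22.1% of the genes tested on this scale and 29.8% on library totals. The log2 fold change was -1.55 (SE 1.20, adjusted p in edgeR = 0.339). The summed level of 5 plasmacytoid dendritic cell markers, a cell type known for Tlr9, was 0.0554 to 0.632 CPM in the deeper Olfr2+ columns, 0.639 to 1.36 CPM in the other Olfr2+ columns and 3.65 to 26.8 CPM in the Olfr2- columns. None of these 5 markers had a median of 10 CPM in any of these sets, and Cox6a2 was at 0 in the Olfr2+ columns. The 7 B cell markers, of another Tlr9-bearing type, summed to 106 to 4550, 12198 to 22037 and 4997 to 17484 CPM in the same order, with 2, 4 and 3 of the 7 at a median of 10 CPM or more, and the part of either cell type in the Tlr9 difference was not tested.

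Tlr13, the receptor for a bacterial ribosomal RNA sequence, held the most uneven values. Olfr2- column 3A had 372 CPM (19773 counts), which was 70.8% of the summed CPM of this gene over all columns, while column 3B of the same library name had 5.91 CPM and the other Olfr2- columns 1.61 to 7.24 CPM. The Olfr2+ columns held 1.02 to 48.4 CPM with a median of 10.7 CPM. Tlr13 averaged 22.3 ± 12.5 CPM in Olfr2+ and 60.2 ± 100 CPM in Olfr2- samples, and its log2 fold change was -1.43 (SE 1.42, adjusted p in edgeR = 0.452). Without Olfr2- sample 3 the log2 fold change was 3.36 (adjusted p in edgeR = 0.219), so the sign rested on that sample.

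**Figure D3:**
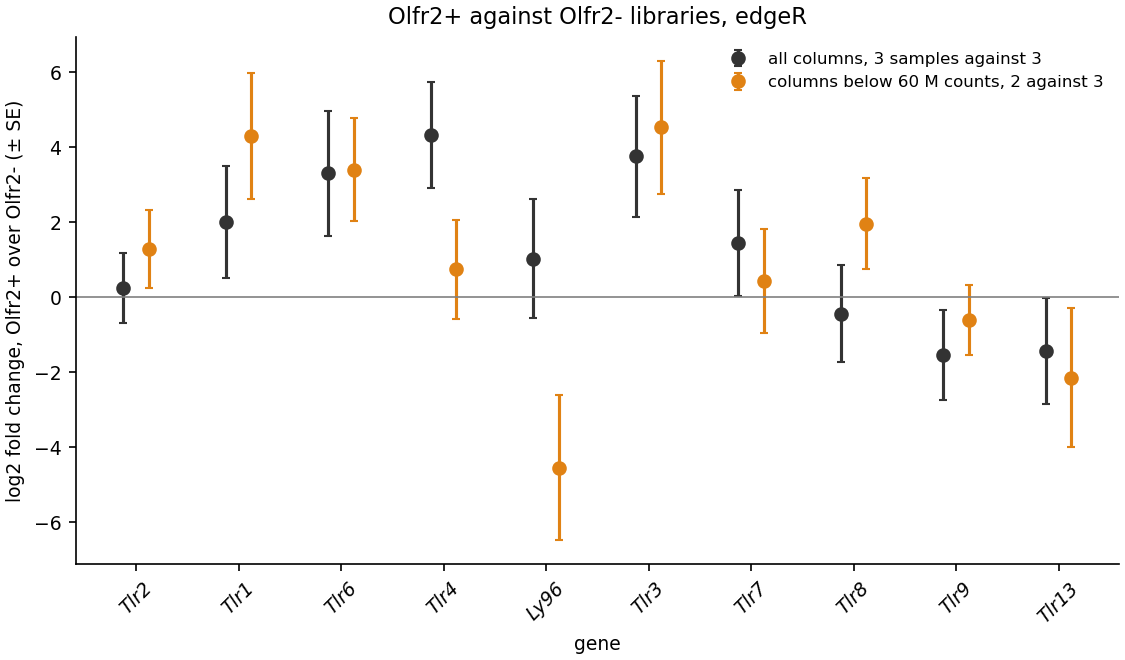
Log2 fold change of each gene, Olfr2+ over Olfr2-, with its SE from edgeR, over all columns (dark, 3 samples against 3) and over the columns below 60 M counts (orange, 2 against 3). Tlr4 was at 4.34 over all columns and at 0.75 below 60 M counts, and Ly96 at 1.03 over all columns and -4.54 below 60 M counts.

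None of the 10 genes passed an adjusted p of 0.05 in edgeR over all columns. Of all 24362 genes tested, 1.12% were called higher and 0.46% lower, 1.58% in all. At an unadjusted p under 0.05 there were 2 of the 10, Tlr3 and Tlr4, beside 7821 of the 24362 genes. DESeq2 called 3 of the 10 higher, Tlr3, Tlr4 and Tlr6, where it called 14% of all genes higher and 9.37% lower (23.4% in either direction), and limma-voom called none. In the columns below 60 M counts edgeR called 0 of the 10 and 0% of 29989 genes, with 4 of the 10 at an unadjusted p under 0.05 (Tlr1, Tlr3 and Tlr6 with positive and Ly96 with negative values) beside 3127 of all genes. The median log2 fold change of the 10 genes was 1.24 beside 0.24 for all genes tested, and 7 of the 10 were positive. The median of all genes depended on their level: with the same scaling it was 1.67 over the 8504 genes averaging 10 CPM or more per sample, and 0.64 over the 4 of the 10 genes among them. Scaling by library totals moved the median of all genes by -1.12, and the 10 genes then had a median of -0.14 with 5 positive.

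Levels were compared between genes per kb of exon. Averaged over the 15 columns, Tlr2 was at 103 ± 102 CPM per kb (SD, n = 15 columns), followed by Ly96 (11.9 ± 13.7), Tlr13 (8.13 ± 21.8), Tlr4 (6.11 ± 7.85), Tlr1 (3.98 ± 9.75), Tlr3 (2.82 ± 4.64), Tlr7 (2.25 ± 2.80), Tlr6 (0.725 ± 1.57), Tlr8 (0.351 ± 0.549) and Tlr9 (0.140 ± 0.212), all in CPM per kb. Tlr2 stood above Ly96 in 14 of 15 columns, and Tlr7 above Tlr6 in 13. The other neighbours kept their order in fewer columns: Tlr4 was above Tlr1 in 11, Ly96 above Tlr13 and Tlr8 above Tlr9 in 10 each, Tlr1 above Tlr3 in 9, Tlr13 above Tlr4 and Tlr6 above Tlr8 in 7 each, and Tlr3 above Tlr7 in 4. Of the summed CPM of the 9 receptors, Tlr2 took a share of 34.7 to 89.1% in Olfr2+ columns, against 60.5 to 95.1% in Olfr2- columns.

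How far columns of one library name differed was measured next, and this covers differences in their marker levels as well as repeat error. In 7 library names with 2 columns each, the absolute difference between both columns in log2(CPM + 1) had a median of 2.41 for Tlr3, 2.26 for Ly96, 1.97 for Tlr1, 1.80 for Tlr7, 1.57 for Tlr2, 1.35 for Tlr4 and 1.27 for Tlr13. The largest differences were 6.76 for Tlr1, between Olfr2+ columns 3C and 3D, 5.75 for Tlr13, between Olfr2- columns 3A and 3B, 5.53 for Tlr3, between Olfr2+ columns 2C and 2D, and 5.21 for Tlr4, between Olfr2+ columns 3A and 3B. Olfr2+ columns 3C and 3D also differed in their marker sums. These were 31026 and 2459 CPM for the fibroblast, 13224 and 2432 CPM for the macrophage and 575 and 12198 CPM for the B cell markers. The part of such differences in the values of the 10 genes was not tested. Over the 8746 genes that averaged 10 CPM or more, the median difference was 1.29 to 2.08 in each pair of columns. Only 14.1% of those genes were at 10 CPM or more in every column, Tlr2 among them, and the median gene reached that level in 9 columns. Of the 10 genes, 6 averaged 10 CPM or more.

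**Figure D4:**
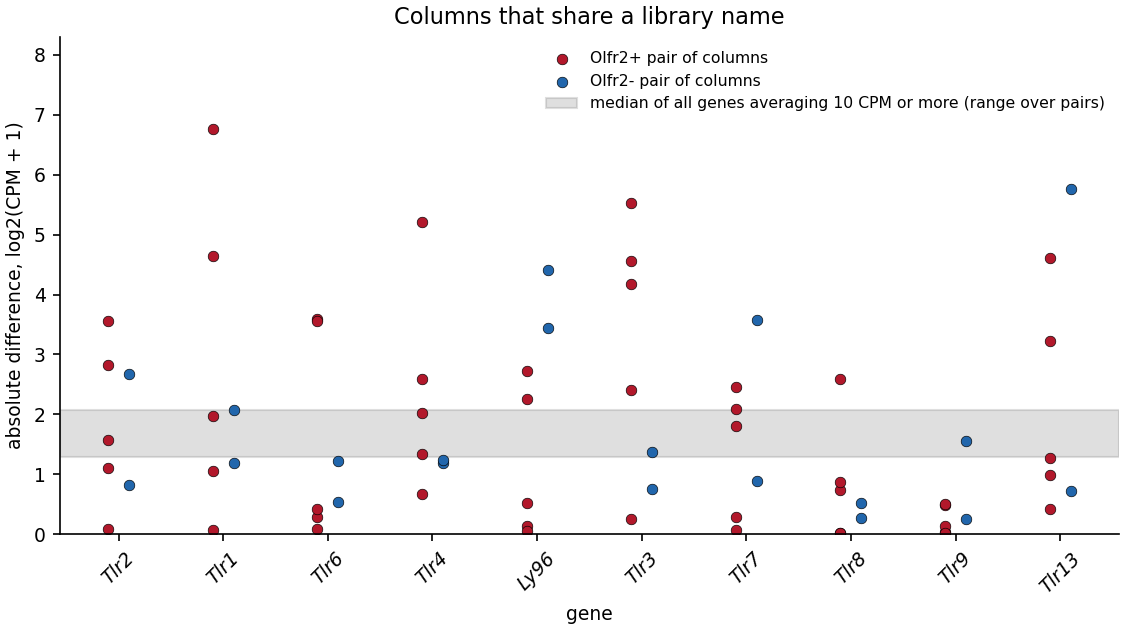
Absolute difference in log2(CPM + 1) between columns that share a library name, 1 point per pair of columns for each gene, with Olfr2+ pairs in red and Olfr2- pairs in blue. The grey band spans, over the 7 pairs, the median difference of all genes averaging 10 CPM or more (1.29 to 2.08), and Tlr1, Tlr3, Tlr4, Tlr13 and Ly96 each had pairs above 4.

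The molecules that work with the receptors were examined in 6 lists of 52 genes, all of which were measured above the expression filter. Only Cd14, the co-receptor that hands lipopolysaccharide to Tlr4 and MD-2, rose, and no gene fell, beside 1.12% of all genes tested called higher and 0.46% lower. Cd14 was at 54.1, 876, 57.3 and 64.8 CPM in Olfr2+ columns 2A to 2D, at 759, 141, 712 and 28.1 CPM in 3A to 3D, and at 913 and 1252 CPM in 4A and 4B. In the Olfr2- columns it was at 26.3, 82.4, 252, 58.0 and 9.64 CPM (1A, 3A, 3B, 4A and 4B). The columns overlapped, but per sample Cd14 averaged 824 ± 353 CPM in Olfr2+ and 49.9 ± 51.6 CPM in Olfr2- samples, with a log2 fold change of 4.05 (SE 0.99, adjusted p in edgeR = 0.043). Unlike Tlr4, its high values were not limited to the deeper columns, as 4A and 4B show. The estimate was 3.69 (SE 1.29) in the columns below 60 M counts, where its adjusted p was 0.423, and the call was also lost on library totals (0.062), in limma-voom (0.102), with the 10 CPM filter and scaling recomputed (0.227), with the depth set as a covariate (0.421), with the replicate block (0.484), with columns as the unit (0.052) and when any sample other than Olfr2- sample 3 was left out (0.058 to 0.110).

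The other co-receptors and chaperones did not pass. Hsp90b1, the chaperone gp96 that folds most Toll-like receptors, averaged 1575 ± 346 CPM in Olfr2+ and 1650 ± 350 CPM in Olfr2- samples (log2 fold change -0.07, SE 0.66, adjusted p in edgeR = 0.946). This likeness held on the TMM scale. On column totals Hsp90b1 was at 514 to 1611 CPM (median 967) in Olfr2+ columns and 1278 to 4685 CPM (median 2060) in Olfr2- columns. Ly86, which encodes the MD-2 relative MD-1, averaged 446 ± 390 CPM in Olfr2+ and 220 ± 192 CPM in Olfr2- samples, with a log2 fold change of 1.02 (SE 0.93, adjusted p in edgeR = 0.413). The list of 9 had a median log2 fold change of 1.92.

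Signal transduction genes had mostly positive estimates that did not pass. None of the 6 adaptors was called (median log2 fold change 2.06). Myd88 averaged 211 ± 201 CPM in Olfr2+ and 47.1 ± 18.4 CPM in Olfr2- samples (log2 fold change 2.16, SE 1.06, adjusted p in edgeR = 0.158), and Slc15a4, which supports endosomal receptor signalling, averaged 69.2 ± 20.2 CPM in Olfr2+ and 48.0 ± 11.8 CPM in Olfr2- samples. None of the 17 kinases and ubiquitin enzymes was called (median 1.41). Ikbkb, the kinase of the NF-kB inhibitor, averaged 168 ± 155 CPM in Olfr2+ and 79.4 ± 2.72 CPM in Olfr2- samples, and Tab2, which links ubiquitin chains to the kinase Map3k7, averaged 143 ± 66.5 CPM in Olfr2+ and 84.5 ± 53.2 CPM in Olfr2- samples. None of the 6 transcription factors was called (median 2.12), with Rel at 834 ± 289 CPM in Olfr2+ and 1145 ± 432 CPM in Olfr2- samples and Nfkb1 at 464 ± 119 CPM in Olfr2+ and 185 ± 97.7 CPM in Olfr2- samples.

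Among the feedback inhibitors, Dusp1 and Nfkbia had the highest mean CPM. Dusp1, a phosphatase of stress-activated kinases, averaged 5867 ± 2316 CPM in Olfr2+ and 1632 ± 733 CPM in Olfr2- samples, with a log2 fold change of 1.85 (SE 0.62, adjusted p in edgeR = 0.081). Nfkbia, the NF-kB inhibitor that the pathway itself induces, averaged 2335 ± 542 CPM in Olfr2+ and 1141 ± 95.6 CPM in Olfr2- samples, with a log2 fold change of 1.03 (SE 0.66, adjusted p in edgeR = 0.249). None of the 11 inhibitors was called (median 1.43). Over the 52 genes, 46 estimates were positive, with a median log2 fold change of 1.71 over all columns, beside 0.24 for all genes tested and 1.67 for those averaging 10 CPM or more. In the columns below 60 M counts their median was 0.91, beside -0.43 for all genes tested there. No median over genes averaging 10 CPM or more was computed for these columns, so the lists and all genes were not compared at like level.

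**Figure D5:**
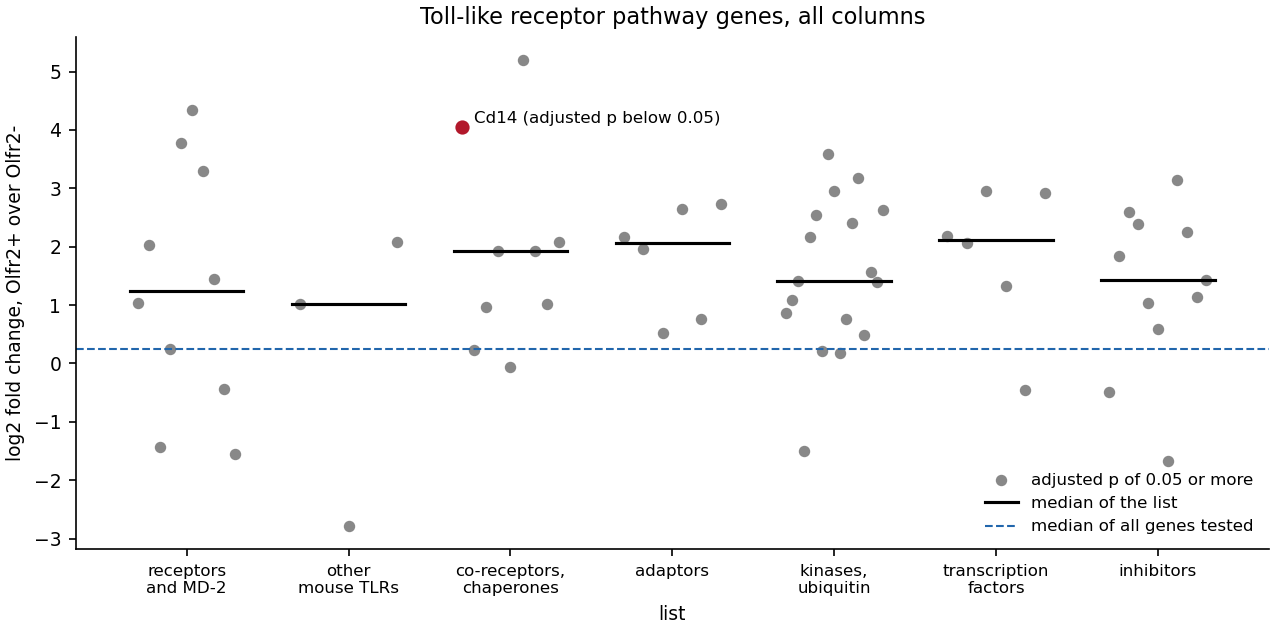
Log2 fold change, Olfr2+ over Olfr2-, of the 10 genes (left) and of the 6 pathway lists, 1 point per gene with the median of each list as a bar and the median of all 24362 genes tested (0.24) as a dashed line; the median of the 8504 genes averaging 10 CPM or more, not drawn, was 1.67. Cd14 (red, 4.05) was the only gene past an adjusted p of 0.05.

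The genes whose log2(CPM + 1) followed that of Tlr2 most closely over the 15 columns, among 8746 genes averaging 10 CPM or more, were Ikzf2 (Pearson r = 0.830), Tmed5 (0.822), Gm37651 (0.800), Sp1 (0.799) and Lsm4 (0.783). These are the highest of 8746 correlations over columns that share depth set and library names, and are given as a description only.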

How the data were processed

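Low-input Smart-Seq2 libraries (sorts of 100 to 200 cells, 18 cycles of cDNA and 9 of library PCR, per the labels' protocols) gave 15 columns. The deposited values are whole-number read counts per gene, not normalized, made by the authors; DRAGEN, STAR 2.7.1, DESeq2 1.34 and the build GRCm39 are listed in the submitters' processing notes. Strand setting and annotation version were not given in the sources used here. Smart-Seq2 carries no strand mark and no molecular identifiers, so overlapping genes cannot be told apart and floors (3 counts) cover counting error only. Column totals were 29.9 to 95.6 M counts.

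Counts were summed to 3 numbered samples per label (numbers from the titles, letters read as repeats, which the labels do not state) and tested in edgeR 4.0.16 by quasi-likelihood (glmQLFTest, R 4.3.3, TMM, expression filter by group), Benjamini-Hochberg adjusted over all genes, threshold 0.05. SE was taken from the F statistic. Values per column are CPM of the column total; values per sample are TMM-scaled CPM. Exon lengths and transcripts came from GENCODE M21 (GRCm38), in which all 10 genes and 99.1% of features had a length; this build differs from that of the notes. Ratios were tested by exact permutation. The fits were also run on simulated counts with as many genes raised as lowered. No composition difference between the labels was built in, so that run could not test the TMM scaling.

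The 10 genes, the pathway and marker lists and the 60 M division were chosen with earlier results of these data known. Named genes are the 10, list genes that passed, the 2 of each list with the highest mean CPM, and the 5 most like Tlr2. Alternatives were other filters and scalings, DESeq2 1.42.0, limma-voom (limma 3.58.1), library names as the unit, the columns below 60 M counts, the depth set as a covariate, a replicate block, and leaving out each sample. Each column as its own unit was added after seeing the data. Figures were drawn with matplotlib 3.10.9.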

Additional observations from a re-analysis of the deposited data

Results flagged for a closer look

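There were 28 groups (14 genes, the 10, 3 further mouse Toll-like receptors and Cd14, under 2 labels). In each, the column at one end was compared with the nearest of the others by Dixon's criterion, and 10 groups passed. Its chance rate of about 1 in 20 groups holds for independent, normally distributed values. The CPM values were skewed and the columns include repeats, so the 10 cannot be set against that rate. Olfr2+ column 3D stood above the other Olfr2+ columns for Tlr1 (127 CPM, the next 31.1 CPM), Tlr2 (929 CPM, the next 515 CPM), Tlr8 (7.65 CPM, the next 0.958 CPM) and Tlr12 (0.798 CPM, the next 0.373 CPM). Tlr13 was at 48.4 CPM in Olfr2+ column 2D, the next at 21.05 CPM, and at 372 CPM in Olfr2- column 3A, the next at 7.24 CPM. Tlr9 was at 2.89 CPM in Olfr2- column 3B, the next at 1.05 CPM. Tlr5, the flagellin receptor, was at 24.6 CPM in Olfr2+ column 3A, the next at 1.27 CPM. Tlr11, a receptor for profilin of protozoa, was at 34.4 CPM in Olfr2+ column 3C, the next at 1.33 CPM, and at 18.9 CPM in Olfr2- column 4A, the next at 0.471 CPM. These columns were compared without a group test and no cause was tested.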

How the results depend on the processing

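Counts of genes called higher and lower over all genes were 273 and 112 by the chosen fit. They were 642 and 239 with no filter, 526 and 3 with a 10 CPM filter and the scaling kept, 0 and 0 with the scaling recomputed (1389 at an unadjusted p under 0.05), 86 and 310 on library totals, 291 and 116 with size factors, 4017 and 2690 in DESeq2, 0 and 0 in limma-voom (7537 unadjusted), 885 and 683 with library names as the unit, 649 and 244 with columns as the unit, 0 and 0 in the columns below 60 M counts (3127 unadjusted), and 0 and 0 with the depth set as a covariate (2610 unadjusted). Leaving out each sample gave 6 to 973 higher and 0 to 113 lower, the lowest without Olfr2+ sample 2 and the highest without Olfr2+ sample 4. The labels share the numbers 3 and 4, whose samples had correlations of 0.013 and -0.072 of their deviations from the label mean. With 3 samples per label and unlike columns within a sample, these cannot tell whether samples of one number share a pool or a sort. With the replicate block 2 genes were called higher and 0 lower, and no called gene was among the 10.

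Of the 10 genes, 3 were called higher in DESeq2, 1 (Tlr4) with library names as the unit, and 0 to 1 when each sample was left out (1, Tlr4, without Olfr2+ sample 4). The other alternatives called none. The 10 CPM filter kept 4 of the 10.

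Directions turned for 4 of them. Tlr2 was at 0.25 by the chosen fit, -0.97 with the 10 CPM filter recomputed, -0.78 on library totals, -0.24 with the replicate block, -0.41 to 0.88 with samples left out (lowest without Olfr2- sample 1) and -0.15 with columns as the unit. Ly96 was at -0.73, -0.47 and -3.31 under the first 3 of these, -4.54 below 60 M counts, -4.61 with the covariate and -1.30 to 1.64 with samples left out (lowest without Olfr2+ sample 2). Tlr8 was at 1.97 below 60 M counts, 1.85 with the covariate and -1.10 to 0.033 with samples left out (highest without Olfr2- sample 3). Tlr13 was at 1.01 in limma-voom and -2.15 to 3.36 with samples left out (highest without Olfr2- sample 3). The ratio of Tlr1 and Tlr6 to Tlr2 was at -0.23 with columns as the unit. The endosomal share ran from -1.18 to 0.30 when each sample was left out, with 0.081 without Olfr2+ sample 4 and 0.13 without Olfr2- sample 1. The cause of these changes was not tested. With 3 samples a label and repeat columns that differed this much, a p that missed the threshold does not show that a gene was alike under both labels.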

Other observations

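The 3 mouse Toll-like receptors outside the set were nearly silent apart from single columns. Tlr12, a partner of Tlr11, was at 0 to 0.798 CPM in the Olfr2+ columns and 0.169 to 3.39 CPM in the Olfr2- columns, with a log2 fold change of -2.79 (SE 1.35, adjusted p in edgeR = 0.154). Tlr5 had a log2 fold change of 2.08 (SE 1.64, adjusted p in edgeR = 0.344) and Tlr11 of 1.01 (SE 1.70, adjusted p in edgeR = 0.665). Lbp, the plasma protein that carries lipopolysaccharide to Cd14, was at 8.93 to 252 CPM in the deeper Olfr2+ columns, 2.10 to 4.63 CPM in the other Olfr2+ columns and 2.07 to 6.60 CPM in the Olfr2- columns; it was named after its values were seen. Its log2 fold change was 5.20 (SE 1.44, adjusted p in edgeR = 0.057) with all columns, against 0.25 (SE 1.20, adjusted p in edgeR = 0.950) below 60 M counts.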
